A study of Danio rerio with 75 samples.

Results

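The genes clock, arntl1a, arntl1b and npas2, which encode the activating transcription factors of the circadian clock, were followed over brain, liver and skin of ageing zebrafish. They were taken by gene symbol from the deposited count table and are 4 of its 32677 genes, with the identifiers ENSDARG00000011703 for clock, ENSDARG00000006791 for arntl1a, ENSDARG00000035732 for arntl1b and ENSDARG00000016536 for npas2. All 4 passed the filter on low counts in all 3 tissues. The study profiled male zebrafish of the TüAB strain (labelled AB JxTu) by RNA sequencing to describe how expression differs between young and old animals. The 73 libraries used here fall into 15 groups, namely 5 ages in each of 3 tissues, with 5 libraries a group except 4 for liver at 6 and at 12 months. The strain label names no transgene at 6 and 24 months, whereas it reads Tg(flk:mCherry) at 12 months, Tg(pu.1:GFP) at 36 months and Tg(wt1a:GFP) at 42 months. Age and reporter line can therefore be told apart only between 6 and 24 months. The fish numbers in the titles form a separate block for each age, so age and numbering cannot be told apart in any comparison. Each 6-month brain library was a pool of 2 fish, whereas all other libraries came from single fish, so that pooling and age cannot be told apart in any comparison with 6-month brain. Fish were sampled around noon and in the early afternoon, and the hour of each fish was not used here.

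In the vertebrate clock, a Clock-type protein (Clock or its close relative Npas2) pairs with a Bmal-type protein (Arntl, also called Bmal) and binds E-box elements of target genes. Among these targets are the period and cryptochrome genes, whose proteins repress the activators, and nr1d1, which encodes the nuclear receptor Rev-erb alpha, a repressor of Bmal1 transcription in mammals that is opposed there by the ROR receptors. Zebrafish carry paired Bmal1 genes (arntl1a and arntl1b), and light entrains the clocks of their peripheral tissues directly, and transcripts of this loop vary with the hour of the day.

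Counted reads per library ranged from 29006611 to 44324353 (brain), from 31306947 to 58166358 (liver) and from 32925263 to 48935972 (skin). Levels within a tissue are given as CPM, counts scaled to the library's size by trimmed mean of M values (TMM), and levels compared between genes as RPKM, which also divide by gene length. Of the markers used to check the labels, 9 neuronal and glial genes summed to between 9270 and 19100 CPM in brain, and 10 keratinocyte genes to between 25100 and 60500 CPM in skin. In liver the 10 hepatocyte markers ranged from 5790 to 282000 CPM, and 5 liver libraries lay under 50000 CPM. These were 6 months replicates 1 and 2, 12 months replicate 1, 24 months replicate 1 and 36 months replicate 4. The library labelled liver 6 months replicate 2 nearly lacked the liver-defining genes, with fabp10a at 2.45, tfa at 4.47 and fga at 1.35 CPM, while the intestinal fatty acid binding protein gene fabp2 stood at 4200 CPM. Comparisons of the 4 genes between ages in liver were therefore also fitted without these 5 libraries. Comparisons between tissues, correlations, shares, ratios, likeness and the other clock genes were not repeated without all 5. Liver libraries also differed in exocrine pancreas RNA, with 9 markers summing to 18.0 to 954 CPM at 6 months and up to 27700 CPM at 12 months. At later ages the sum reached 34900 CPM (24 months), 131000 CPM (36 months) and 35100 CPM (42 months). The highest were 36 months replicates 1 and 5 (131000 and 57300 CPM), which lay above the hepatocyte limit. The part of pancreas RNA in the results was not tested. In tissue RNA, fewer cells of a type and less RNA per cell cannot be told apart.

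In brain all 4 genes differed among the 5 ages, in an order that was not the order of age. By mean CPM each gene ran from high to low as 6, 42, 12, 24 and 36 months, with overlap between some neighbours. The fish numbers in the titles rise through the ages in this same order. What these numbers follow was not tested. Mean levels of clock, arntl1a and arntl1b were highest at 6 and 42 months, lower at 12 months and lowest at 24 and 36 months. For npas2 the highest level was at 6 months and the lowest at 24 and 36 months, while the libraries of 12 and 42 months overlapped (medians of 15.9 and 14.8 CPM). Among 23028 genes tested over the 5 ages with edgeR, arntl1a ranked 5th by p (adjusted p = 5.65e-13), arntl1b 10th (3.61e-12), npas2 25th (7.42e-10) and clock 220th (8.20e-06). The threshold was an adjusted p of 0.05, and 50.1% of all genes tested in brain passed it.

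Of the Bmal1 genes, which encode the partner that Clock-type proteins bind, both separated the ages in brain. For arntl1a, the 5 brain libraries of 6 months held 51.4, 49.9, 42.5, 50.0 and 48.1 CPM, and those of 42 months 42.4, 44.3, 45.6, 44.1 and 47.2 CPM. At 36 months they held 14.02, 12.0, 12.2, 16.3 and 9.69 CPM. The lowest library of either outer age thus stood at 42.4 CPM and the highest of 36 months at 16.3 CPM. The libraries of 12 months lay between (34.1 to 38.9 CPM), and those of 24 months (14.7 to 17.5 CPM) overlapped those of 36 months. For arntl1b the values were 37.0, 32.1, 28.7, 35.0 and 36.4 CPM at 6 months, 7.68, 8.43, 7.75, 7.69 and 4.83 CPM at 36 months, and 29.5, 28.2, 28.5, 35.1 and 36.8 CPM at 42 months. Its 12-month libraries lay between 17.7 and 19.9 CPM and its 24-month libraries between 7.41 and 10.5 CPM, so that the ranges of 24 and 36 months overlapped whereas 12 months lay below 6 months.

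Of the Clock-type genes, npas2 had the widest range. It stood at 34.8, 36.3, 17.4, 26.9 and 33.0 CPM at 6 months, at 1.78, 1.68, 2.50, 2.65 and 2.37 CPM at 36 months, and at 14.8, 12.4, 12.8, 27.5 and 28.6 CPM at 42 months. Of the 42-month libraries, replicates 4 and 5 lay within the range of 6 months and the other 3 below it. Libraries of 12 months held 13.6 to 21.9 CPM and those of 24 months 3.81 to 5.15 CPM, all above the highest of 36 months. For clock itself the libraries of 6 months held 45.6 to 54.6 CPM, those of 36 months 22.05 to 33.4 CPM and those of 42 months 44.1 to 55.5 CPM. The 36-month range overlapped those of 12 months (25.5 to 42.1 CPM) and 24 months (20.3 to 32.1 CPM).

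**Figure D1:**
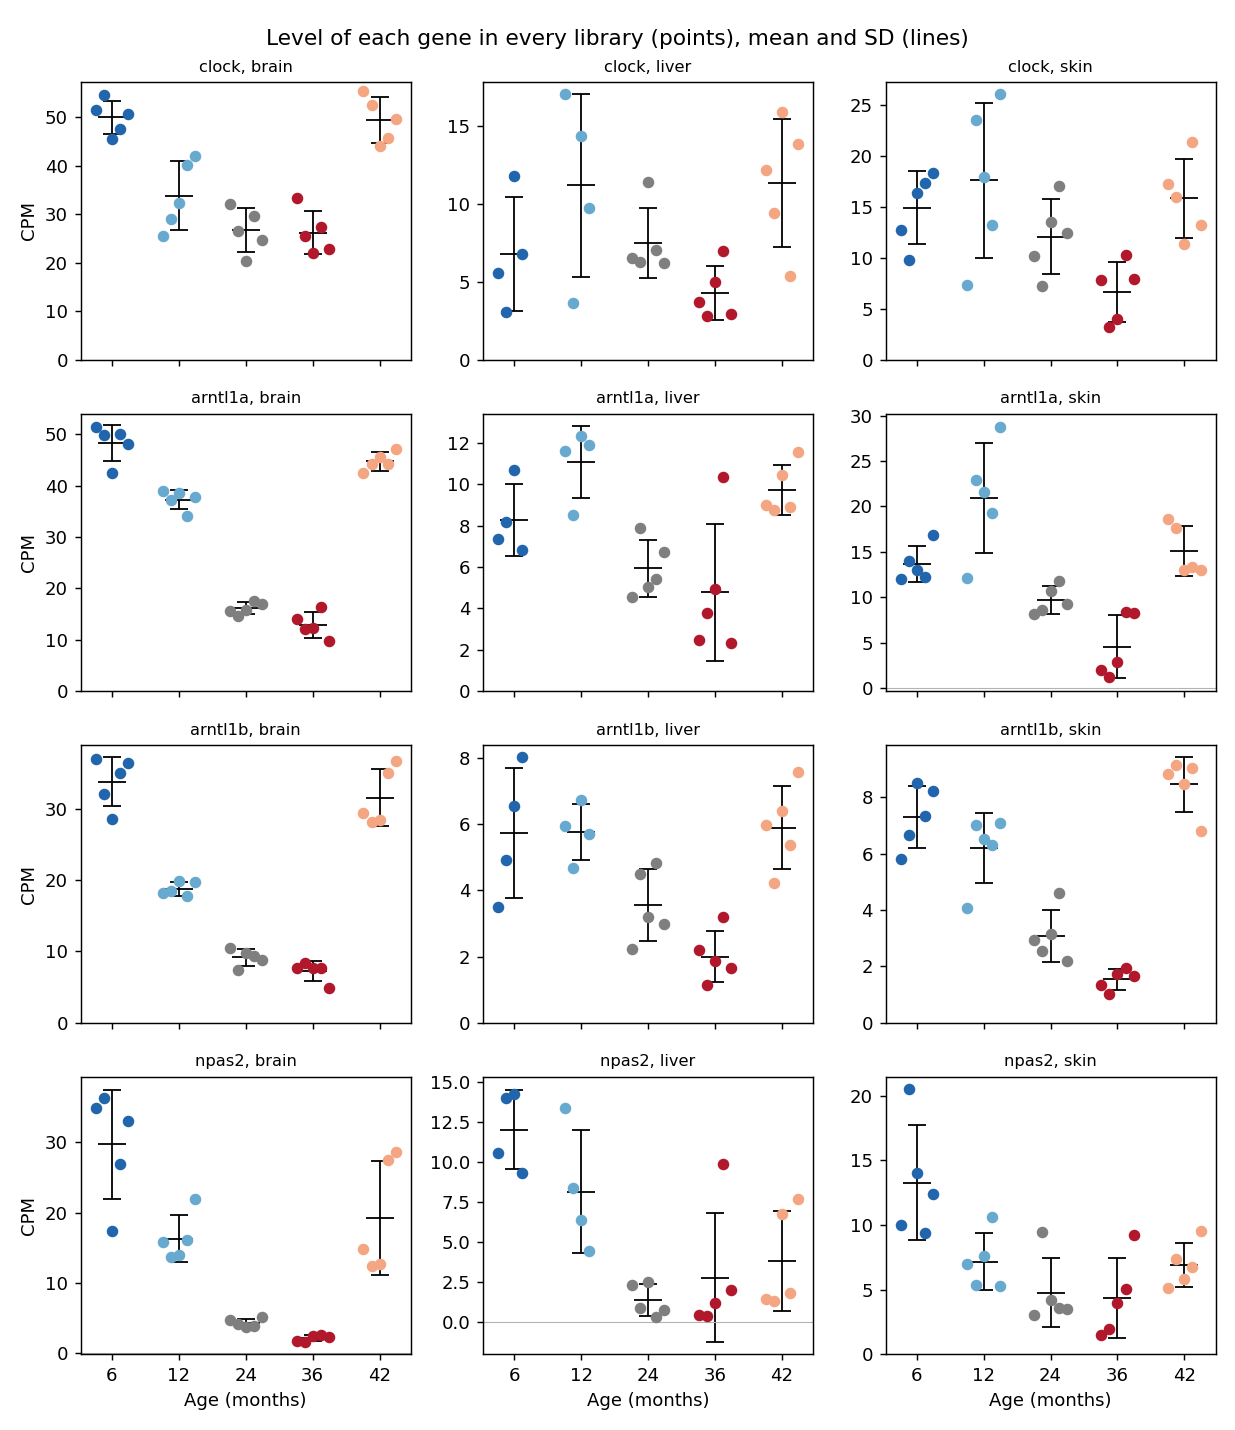
Level of clock, arntl1a, arntl1b and npas2 (rows, in CPM on linear axes) in brain, liver and skin (columns) at 6, 12, 24, 36 and 42 months. Points are single libraries and the lines give the mean and SD of a group. In brain the 36-month libraries of arntl1a, at 9.69 to 16.3 CPM, lie far below those of 6 and 42 months. In liver the 36-month libraries of arntl1b, at most 3.19 CPM, also lie below those of both ages.

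Compared with 6 months, all 4 genes fell in brain at 36 months. The log2 fold change was −0.93 ± 0.14 (SE) for clock (adjusted p = 3.27e-05), −1.91 ± 0.10 for arntl1a (2.48e-12), −2.22 ± 0.13 for arntl1b (1.78e-11) and −3.75 ± 0.26 for npas2 (5.95e-10), with n = 5 a group. In this comparison 28.7% of all genes tested passed the threshold, and the groups did not overlap for 20.6% of genes and for all 4 described here. Between 36 and 42 months all 4 rose, clock by a log2 fold change of 0.92 (adjusted p = 6.35e-05), arntl1a by 1.799 (1.76e-11), arntl1b by 2.12 (5.91e-11) and npas2 by 3.13 (1.26e-08). These amount to 1.89-fold, 3.48-fold, 4.35-fold and 8.74-fold higher levels at 42 months. Here 22.8% of all genes passed, and 14.4% of genes and all 4 members had groups without overlap. By p, arntl1a ranked 2nd and arntl1b 6th of the 23028 genes.

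Against 6 months, brain levels of all 4 genes were already lower at 12 months, with log2 fold changes of −0.56 for clock, −0.38 for arntl1a, −0.85 for arntl1b and −0.86 for npas2 (adjusted p from 1.43e-04 to 0.0133, against 18.3% of all genes called). The ranges of 6 and 12 months did not overlap for 3 of the 4, npas2 being the exception, and for 14.5% of all genes. At 24 months, where the labels list no change of reporter line, the differences were −0.91, −1.58, −1.88 and −2.76 in the same order (adjusted p of 1.43e-04 or less, with 13.9% of genes called). From 24 to 36 months arntl1a fell by 0.33 (adjusted p = 0.0147) and npas2 by 1.00 (0.00571), the difference of arntl1b was −0.33 (0.0539) and that of clock −0.02 (0.923), while 21.0% of all genes passed. Limma voom called arntl1a alone here (npas2 at −1.01, adjusted p = 0.0820), whereas DESeq2 called 3, with arntl1b at −0.33 (0.0361). With edgeR, arntl1b passed without any 1 of 6 months replicate 3, 24 months replicate 2, 36 months replicate 2 or 42 months replicate 5 (0.0283 to 0.0476). For npas2 the 24- and 36-month libraries did not overlap, which held for 11.9% of genes. None of the 4 differed between 42 and 6 months at the threshold, by edgeR, DESeq2 or limma voom, where 8.67% of all genes did by edgeR. The unadjusted p was under 0.05 for 1, npas2, at −0.63 ± 0.23 (adjusted p = 0.0853), which ranked 3058th of 23028 genes by p. Without 42 months replicate 4 or replicate 5 the difference of npas2 passed, at −0.79 (0.0397) and −0.81 (0.0421), and it also passed without 6 months replicate 3, at −0.77 (0.0356).

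With the ages labelled old (36 and 42 months) averaged and set against 6 months, labelled young, all 4 genes were lower in old brain, against 19.6% of all genes called and a median log2 fold change of all genes of −0.01. The differences were −0.47 ± 0.11 for clock (adjusted p = 0.00584), −1.01 ± 0.08 for arntl1a (1.19e-08), −1.16 ± 0.10 for arntl1b (8.36e-08) and −2.19 ± 0.19 for npas2 (9.50e-08). The old mean joins the low 36-month and the high 42-month group. The 6-month brain pools also held more RNA of photoreceptor and pineal genes, with 15 markers summing to 25 to 199 CPM against 15.2 to 69.8 CPM at later ages. With this sum as a covariate the call of clock was lost (−0.46, adjusted p = 0.139), and those of the other 3 genes in old against young brain were not. At 12 against 6 months the calls of clock, arntl1a and npas2 were lost with it, at −0.56, −0.43 and −0.73 (adjusted p = 0.0872, 0.0577 and 0.182) in place of −0.56, −0.38 and −0.86. Pituitary markers reached 658 and 181 CPM in 6 months replicates 2 and 5 against at most 8.57 CPM in all other brain libraries, and their part in the result was not tested.

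**Figure D2:**
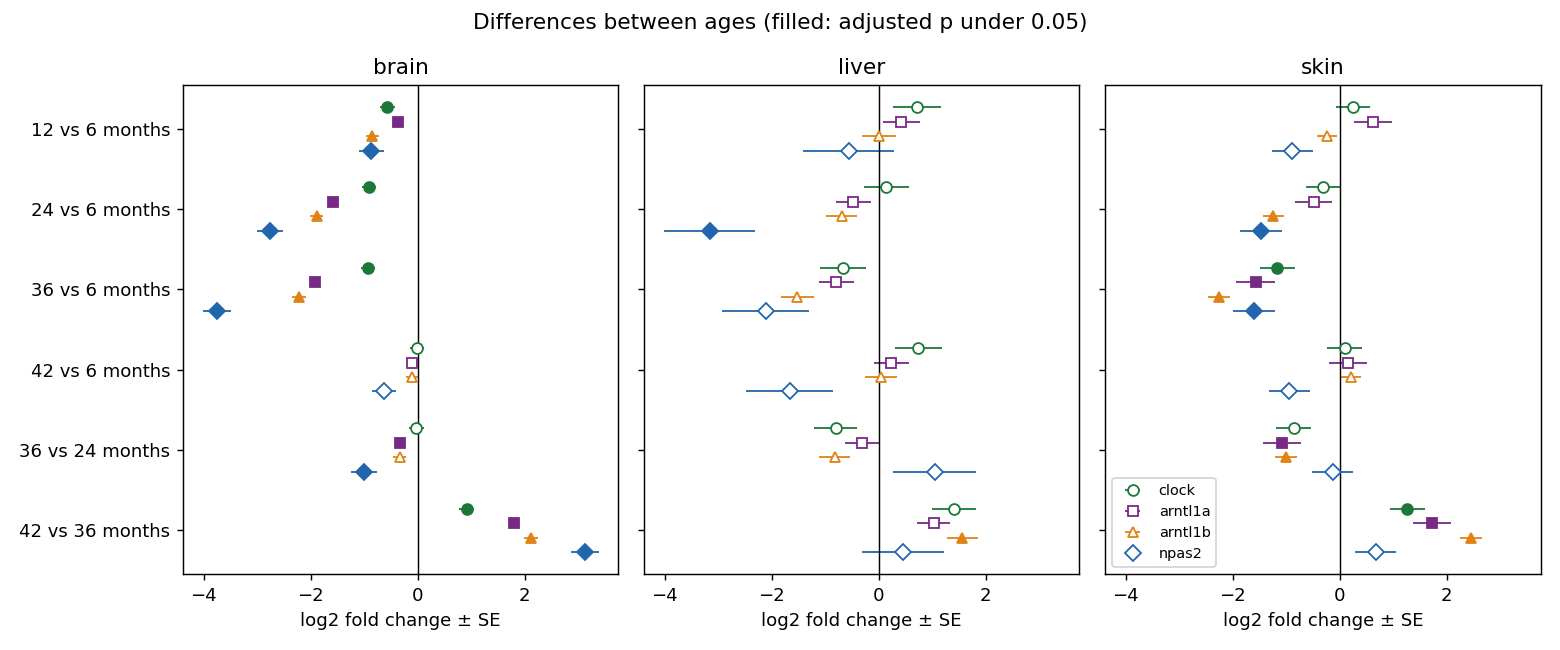
Differences between ages in brain, liver and skin for the 4 genes, as log2 fold change with its SE on the horizontal axis. Filled symbols have an adjusted p under 0.05. In brain all 4 symbols lie to the left of 0 at 36 against 6 months and to the right of 0 at 42 against 36 months, with npas2 at −3.75 and 3.13.

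The repressor genes nr1d1 and per1b ran opposite to the activators in brain. Libraries of 6 months held 20.5, 15.7, 40.0, 33.0 and 22.2 CPM of nr1d1, those of 36 months 343, 339, 335, 334 and 307 CPM, and those of 42 months 66.8, 71.1, 63.9, 43.4 and 54.8 CPM. All 36-month libraries thus lay above all those of 6 and 42 months. For per1b, a period gene, the range was 97.7 to 173 CPM at 6 months, 384 to 635 CPM at 36 months and 147.9 to 216 CPM at 42 months. With the level of nr1d1 as a covariate none of the 4 activators kept its call in old against young brain. The differences were then −0.54 for clock (adjusted p = 0.712), −0.97 for arntl1a (0.282), −0.94 for arntl1b (0.442) and −0.22 for npas2 (0.934). The same covariate ended the calls of all 4 genes at 24 and at 36 against 6 months. At 36 months the differences were then −1.04 for clock, −1.85 for arntl1a, −1.89 for arntl1b and −0.79 for npas2 (adjusted p of 0.221 or more), in place of −0.93, −1.91, −2.22 and −3.75. At 24 months they were −0.99, −1.54, −1.64 and −0.50 (0.121 or more). At 12 against 6 months only arntl1b kept its call, and from 36 to 42 months only arntl1a. Over the 5 ages all 4 kept theirs. As nr1d1 is itself a target of the activators and separates the ages in brain, this covariate also carries age. The share of all genes called with this covariate was not counted, so whether lost calls are particular to these 4 genes was not tested. The part of the hour of sampling was not tested.

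**Figure D3:**
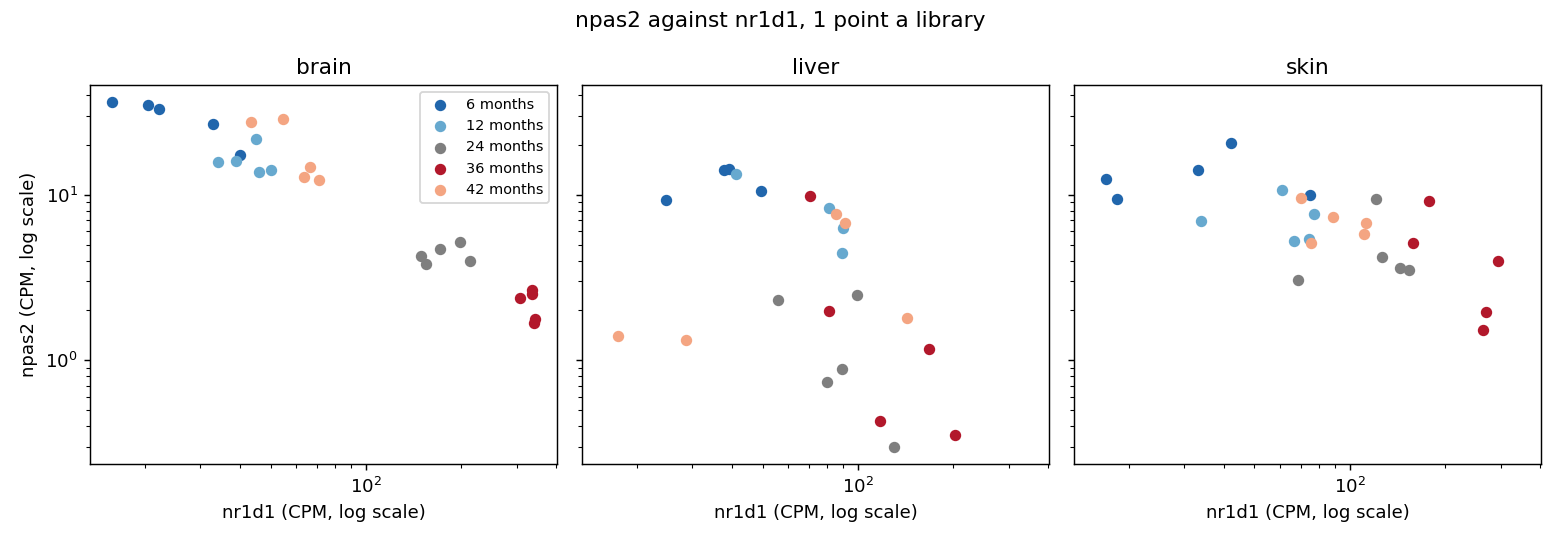
Level of npas2 against that of nr1d1 (both in CPM on log axes), with 1 point a library coloured by age, in brain, liver and skin. In brain the points run from the 6-month libraries, at 15.7 to 40.0 CPM of nr1d1, down to the 36-month libraries, at 307 CPM of nr1d1 or more and at most 2.65 CPM of npas2.

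Within single ages in brain, npas2 was lower in libraries with more nr1d1. After removal of the mean of each age, Pearson's r was −0.63 and Spearman's rho −0.59 over 25 libraries (permutation test within ages, p = 0.00309 and 0.00478, adjusted p = 0.0336 and 0.0402 over 42 correlations), and r was −0.55 without the 2 libraries farthest from the median of npas2. The 42-month libraries give an example, as replicates 4 and 5, which held most npas2, held 43.4 and 54.8 CPM of nr1d1 and the other 3 held 63.9 to 71.1 CPM. The 24-month libraries did not show it. Replicates 5 and 1, with most npas2 (5.15 and 4.73 CPM), held 198.1 and 171.7 CPM of nr1d1. Replicates 2, 3 and 4 of that age held 149.8, 154.7 and 212.8 CPM. No correlation was computed for single ages. The relation of npas2 with per1b was similar in size (r = −0.57, permutation p = 0.00685) but missed the threshold after adjustment (0.0575). For the other 3 genes no within-age correlation with nr1d1 or per1b passed in any tissue, nor did any in liver or skin for npas2. Between arntl1a and arntl1b in brain, r was 0.61 (permutation p = 0.0225, adjusted p = 0.118) and 0.40 without the 2 farthest libraries, against 0.97 when ages were not removed.

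In skin the 36-month libraries again had the lowest mean of each of the 4 genes. All 4 genes differed among the ages (adjusted p = 0.0115 for clock, 9.42e-04 for arntl1a, 1.84e-07 for arntl1b and 0.00830 for npas2), where 49.0% of all genes did. By p, arntl1b ranked 14th of 22429 genes and the other 3 ranked 2050th or lower. For arntl1b the skin libraries held 5.82, 6.68, 8.50, 7.34 and 8.24 CPM at 6 months, 1.33, 1.02, 1.73, 1.95 and 1.65 CPM at 36 months, and 8.82, 9.16, 8.49, 9.05 and 6.80 CPM at 42 months. All libraries of 36 months lay under 2 CPM and under all libraries of any other age. For arntl1a the 36-month libraries held 2.06, 1.23, 2.88, 8.40 and 8.33 CPM, against 12.1 to 16.9 CPM at 6 months and 13.0 to 18.6 CPM at 42 months. Replicates 4 and 5 of this group thus lay between the other 3 and the outer ages.

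At 36 months against 6 months all 4 genes fell in skin, by log2 fold changes of −1.17 ± 0.33 for clock (adjusted p = 0.0158), −1.57 ± 0.36 for arntl1a (0.00449), −2.25 ± 0.21 for arntl1b (6.11e-07) and −1.61 ± 0.39 for npas2 (0.00687). Of all genes 18.0% passed. The groups did not overlap for 11.3% of genes and for 3 of the 4 members, clock being the exception. From 36 to 42 months clock rose by 1.26 (adjusted p = 0.0185), arntl1a by 1.72 (0.00570) and arntl1b by 2.46 (1.47e-07), whereas the difference of npas2 was 0.67 ± 0.39 (0.277). Here 10.0% of all genes were called. Groups did not overlap for 7.07% of genes and for the 3 members that rose. Libraries of npas2 in skin held 10.02, 20.5, 14.05, 9.39 and 12.4 CPM at 6 months, 1.51, 1.94, 3.97, 5.09 and 9.20 CPM at 36 months, and 5.14, 7.34, 5.79, 6.76 and 9.52 CPM at 42 months. The 36-month libraries spread widely, and the highest of them reached into the range of 42 months.

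At 24 months arntl1b (−1.24, adjusted p = 2.58e-04) and npas2 (−1.48, 0.0108) were lower in skin than at 6 months, against 20.2% of all genes called. Neither clock (−0.31, 0.533) nor arntl1a (−0.49, 0.338) passed. From 24 to 36 months arntl1a fell by 1.08 (0.0291) and arntl1b by 1.01 (0.00101), with 25.8% of all genes called, and the differences of clock (−0.86, 0.0525) and npas2 (−0.13, 0.832) did not pass. The call of arntl1a was lost without any 1 of 24 months replicates 3 and 4 and 36 months replicates 1, 2 and 3 (−1.07 to −0.87, adjusted p = 0.0516 to 0.0770). DESeq2 called clock as well (−0.88, 0.0310), and edgeR did without any 1 of 7 libraries, 6 months replicate 2, 12 months replicates 1, 2, 4 and 5, 24 months replicate 2 and 36 months replicate 4 (−1.08 to −0.90, 0.0234 to 0.0491). No member passed at 12 months (9.08% of genes called) or at 42 months (8.07%) against 6 months, by edgeR, DESeq2 or limma voom, and the unadjusted p of 1 member, npas2, was under 0.05 in each. By p, npas2 ranked 4716th of 22429 genes at 12 months and 4026th at 42 months. In old against young skin arntl1b fell by 1.02 ± 0.16 (adjusted p = 4.77e-04) and npas2 fell by 1.28 ± 0.32 (0.0106), against 15.1% of all genes called and a median of all genes of 0.01. The differences of arntl1a (−0.71, 0.108) and clock (−0.54, 0.183) did not pass. Without 36 months replicate 4 or replicate 5 that of arntl1a passed, at −0.88 (0.0383) and −0.89 (0.0389).

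The 2 skin libraries of 36 months with more arntl1a also stood apart in the repressors. Replicates 4 and 5 held 159 and 178 CPM of nr1d1 and 253 and 295 CPM of per1b, against 264.5 to 294.5 CPM and 376 to 424 CPM in replicates 1 to 3. Their summed skeletal muscle markers were the lowest of the group, at 2700 and 4650 CPM against 7010 to 66700 CPM. With these 14 muscle markers as a covariate, arntl1a in old against young skin was −1.36 (adjusted p = 0.00255). Brain and skin libraries of this age shared 4 fish. The fish of skin replicate 4, with 8.40 CPM of arntl1a, gave brain replicate 5, the brain library with the least arntl1a of all 25. With nr1d1 as a covariate the calls of arntl1b and npas2 in old against young skin were lost (−0.96, adjusted p = 0.160, and −0.93, 0.481).

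In skin, clock and the Bmal1 genes varied together within ages. The within-age r was 0.67 for clock with arntl1a (rho 0.67), 0.71 for clock with arntl1b (rho 0.71) and 0.67 for arntl1a with arntl1b (rho 0.68), over 25 libraries, with permutation p from 1.20e-04 to 0.00320 for r and from 7.50e-04 to 0.00294 for rho. Adjusted over the 42 correlations these became 0.0336, 0.0223 and 0.00504 for r, and 0.0402, 0.0176 and 0.0176 for rho. Without the 2 libraries farthest from the median they were 0.52, 0.54 and 0.54. For npas2 the within-age r was −0.12 with clock, 0.52 with arntl1a and 0.14 with arntl1b, none of which passed. In brain the within-age r of clock was 0.21 with arntl1a and 0.19 with arntl1b (permutation test, adjusted p = 0.745 for both). The difference between brain and skin in these correlations was not tested.

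In liver 1 of the 4 genes differed among the ages, arntl1b (adjusted p = 0.0105), where 7.28% of all 21045 genes did. Its libraries held 3.51, 4.92, 6.54 and 8.04 CPM at 6 months, 2.19, 1.13, 1.85, 3.19 and 1.65 CPM at 36 months, and 5.97, 4.21, 6.39, 5.36 and 7.58 CPM at 42 months. The 36-month libraries lay below all those of 42 months, and below all those of 6 months. Such separation held for 2.31% of all genes between 36 and 42 months and for 4.02% between 6 and 36 months. From 36 to 42 months arntl1b rose by 1.56 ± 0.29 (adjusted p = 0.0312), with 0.181% of all genes called, and arntl1b ranked 17th of all genes by p. The differences of clock (1.41, 0.209), arntl1a (1.03, 0.227) and npas2 (0.45, 0.906) were also positive and did not pass. The call of arntl1b was lost without any 1 of 6 of the 23 libraries (36 months replicates 2, 3 and 5, 42 months replicates 1, 2 and 5), with differences of 1.42 to 1.65 and an adjusted p of 0.066 to 0.110. From 6 to 36 months the difference of arntl1b was −1.52 (0.0590), and 0.0855% of all genes were called. DESeq2 called it (−1.51, 4.76e-04), and edgeR did without 6 months replicate 1, 24 months replicate 1 or 36 months replicate 4 (0.0298 to 0.0384). Within ages, clock and arntl1b varied together in liver by rho (0.60, permutation p = 0.00473, adjusted p = 0.0402 over 42) but not at the threshold by r (0.49, 0.0172, 0.103), which was 0.47 without the 2 farthest libraries.

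For npas2 the liver libraries of 6 months held 10.5, 14.03, 14.2 and 9.28 CPM and those of 24 months 2.32, 0.878, 2.49, 0.298 and 0.736 CPM, a difference of −3.16 ± 0.85 (adjusted p = 0.0423), where 3.55% of all genes passed. This call was lost without any 1 of 9 of the 23 libraries, namely each of 6 months, 12 months replicates 2 and 3, and 24 months replicates 2, 4 and 5, with differences of −3.30 to −2.90 and an adjusted p of 0.0534 to 0.0846. At 36 months npas2 stood at 0.430, 0.351, 1.17, 9.84 and 1.99 CPM, with replicate 4 inside the range of 6 months. That library held 29600 CPM of hepatocyte markers, the lowest of its age. At 42 months the values were 1.40, 1.32, 6.73, 1.798 and 7.67 CPM. No other comparison called a member in liver by edgeR, namely 12 against 6 months (0.0380% of all genes), 42 against 6 months (0.105%), 36 against 24 months (4.30%) and old against young (0.190%, with a median of all genes of −0.02). Among these the unadjusted p was under 0.05 for no member at 12 and 42 months, for 1 at 36 against 24 months and for 2 (arntl1b and npas2) in old against young, and neither DESeq2 nor limma voom called any. At 36 against 6 months it was under 0.05 for 3, arntl1b, npas2 and arntl1a, which ranked 20th, 1161st and 1487th of 21045 genes by p. The share of all genes at this unadjusted threshold was not counted. At 36 against 24 months arntl1b ranked 1777th by p, and clock, with an unadjusted edgeR p of 0.0592, ranked 4685th. In old against young arntl1b ranked 854th and npas2 959th.

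**Figure D4:**
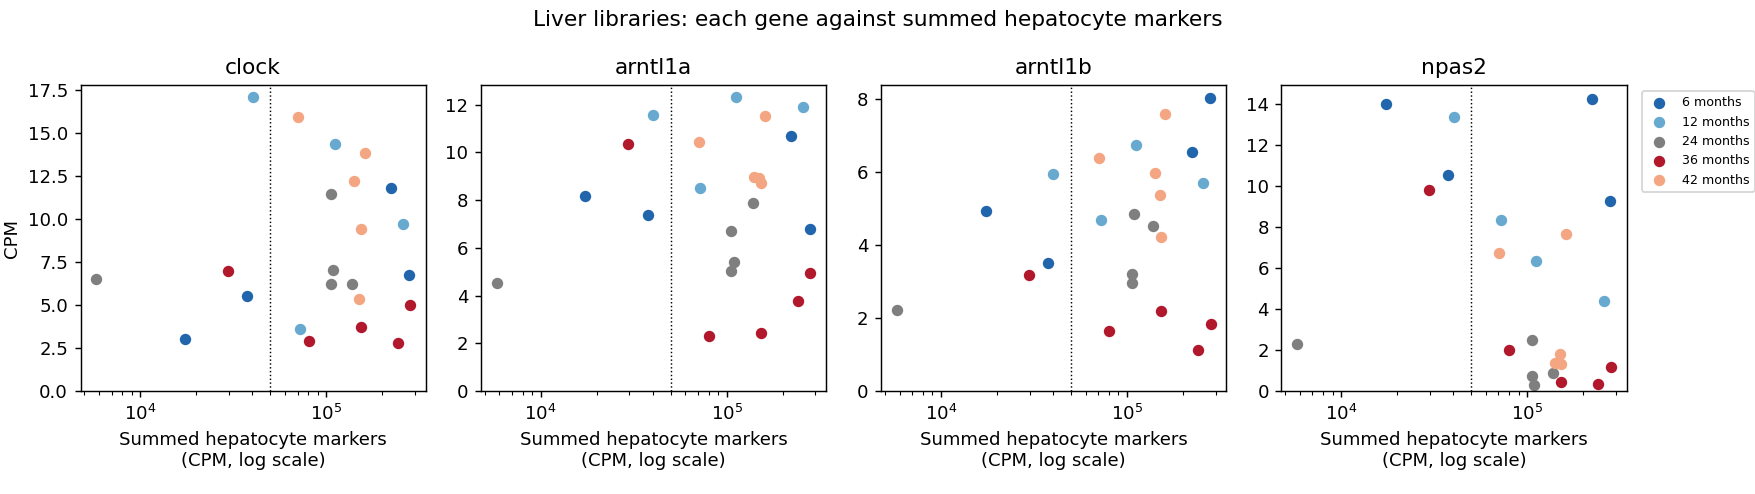
Level of each gene in the 23 liver libraries (CPM) against the summed CPM of 10 hepatocyte markers on a log axis, coloured by age. The dotted line marks 50000 CPM. Left of it lie 5 libraries, among them the 36-month library with 9.84 CPM of npas2, while the other 4 of that age hold 0.351 to 1.99 CPM.

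Without the 5 liver libraries under 50000 CPM of hepatocyte markers, arntl1a (adjusted p = 0.0147) and npas2 (0.0404) also differed among the ages. The 18 libraries left were 2 of 6 months, 3 of 12, 4 of 24, 4 of 36 and 5 of 42 months. Among them arntl1b fell from 6 to 36 months by 2.07 (0.00684) and from 24 to 36 months by 1.17 (0.0229). The rise of arntl1a from 36 to 42 months was 1.50 (0.0478). The difference of npas2 from 24 to 36 months turned from 1.04 to −0.12, neither passing. The share of all genes called in these 18 libraries was not counted. Leaving out 36 months replicate 4 alone gave old against young npas2 at −2.63 (0.0438), in place of −1.89 (0.220). The intestinal markers summed to at most 12900 CPM in liver and exceeded 2000 CPM in 17 of the 23 libraries, including all of 6 and 12 months. Of these markers, fabp2 alone stood at 51.3 and 31.2 CPM in 6 months replicates 3 and 4 and at 5.79 CPM in 12 months replicate 4. In the other libraries of 6 and 12 months it stood at 1470 CPM or more. Liver 36 months replicate 3 summed to 10200 CPM with 0.227 CPM of fabp2, so a high sum did not always come with much fabp2. With the summed intestinal markers as a covariate npas2 differed among the ages (0.0420), its difference between 24 and 6 months was −2.28 (0.0838), and the rise of arntl1b from 36 to 42 months was 1.63 (0.142).

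Between tissues, the first 3 genes were higher in brain than in liver and skin on both scales used. In counts scaled by TMM over all 73 libraries, with ages weighted equally, brain exceeded liver by 0.73 ± 0.14 log2 units for clock, 0.39 ± 0.13 for arntl1a and 0.49 ± 0.09 for arntl1b (adjusted p of 0.00508 or less), and exceeded skin by 1.04, 0.83 and 1.45 (2.46e-08 or less). For npas2 the differences were −0.28 (0.255) and 0.09 (0.731). Such calls were frequent, at 85.1% of all genes between brain and liver and 83.4% between brain and skin. On RPKM, where the median gene differed by 1.26 between brain and liver and by 0.38 between brain and skin, brain exceeded liver by 2.13, 1.89 and 1.92 for the 3 genes, or by 0.868, 0.635 and 0.66 relative to that median. The difference of npas2 between brain and liver was 1.42 on this scale and 0.16 relative to the median. Between liver and skin, where 73.5% of genes were called, counts placed clock (0.31, adjusted p = 0.0451), arntl1a (0.44, 0.00186) and arntl1b (0.95, 8.12e-14) higher in liver, and RPKM gave the opposite sign, at −0.67, −0.54 and −0.10, with a median gene at −0.87. Relative to that median the RPKM differences were 0.21, 0.33 and 0.77. With fish as a block the liver and skin difference of clock was 0.26 (0.0903), and it missed the threshold without any 1 of 17 of the 73 libraries (0.25 to 0.31).

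In RPKM, which allows a comparison between genes, arntl1a had the highest mean of the 4 over all ages in each tissue, with means of 13.2 ± 6.22 in brain (SD, n = 25), 3.33 ± 1.47 in liver (n = 23) and 5.31 ± 2.62 in skin (n = 25). In brain arntl1b followed at 5.51 ± 3.16 and npas2 at 5.34 ± 4.27, with SDs that include the differences between ages, and then clock at 3.37 ± 1.06. In liver npas2 stood at 2.10 ± 2.16, arntl1b at 1.25 ± 0.535 and clock at 0.769 ± 0.474, with medians of 1.11 for npas2 and 1.27 for arntl1b, and in skin npas2 stood at 2.69 ± 1.47, arntl1b at 1.47 ± 0.796 and clock at 1.22 ± 0.526. These means pool the ages, and by mean the order was not the same at each age in any tissue. In 6-month brain npas2 stood at 11.1 ± 2.94 and arntl1b at 9.32 ± 1.03 RPKM (n = 5). In 36-month brain npas2 was lowest, at 0.838 ± 0.161 against 2.05 ± 0.423 for arntl1b and 2.43 ± 0.396 for clock. In skin arntl1b stood above clock at 6 months (1.90 ± 0.24 and 1.28 ± 0.295) and below it at 36 months (0.414 ± 0.113 and 0.59 ± 0.272). In liver at 6 months npas2 stood at 4.76 ± 2.18 and arntl1a at 3.54 ± 1.30 RPKM (n = 4), within each other's spread. At 24 months liver npas2 stood at 0.670 ± 0.549 and arntl1b at 1.19 ± 0.204 RPKM (n = 5). The clock gene model is the longest, with 11039 bases implied by counts and RPKM against 2413 for arntl1a, 3648 for arntl1b and 2683 for npas2. How reads shared between near copies (clock with clock3, arntl1a with arntl1b) entered the deposited counts was not tested, so that levels of such pairs are uncertain.

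None of the 4 genes passed the threshold for a difference between tissues in its change from young to old. The differences of the changes were, for brain against skin, 0.07 for clock, −0.30 for arntl1a, −0.14 for arntl1b and −0.91 for npas2 (adjusted p of 0.678 or more), with SEs of 0.25 to 0.63. For brain against liver they ranged from −0.74 ± 0.36 (arntl1a, 0.234) to −0.30 (npas2, 0.844), and for liver against skin from −0.61 to 0.60 (0.466 or more). Of all genes 4.70%, 0.931% and 2.93% passed for brain against liver, brain against skin and liver against skin. For the change from 36 to 42 months, a comparison chosen after the values within tissues had been seen, npas2 rose more in brain than in liver, by 2.70 ± 0.74 (adjusted p = 0.0344), whereas 2.48% of all genes passed. That call was lost with fish as a block (1.96, 0.163) and without 8 single libraries, among them liver 36 months replicate 4, without which the difference was 1.21 (0.398). Against skin the difference was 2.45 ± 0.74 (0.117, with 0.300% of genes called), and no member passed between liver and skin, where 0.568% of genes did.

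Of the summed RPKM of the 3 Clock-type genes (clock, its duplicate clock3 and npas2), npas2 made up 37.1% ± 5.45 (SD, n = 5) in 6-month brain, 33.3% ± 0.997 at 12 months, 12.3% ± 2.07 at 24 months, 8.32% ± 2.48 at 36 months and 30.6% ± 5.94 at 42 months. Its highest share at 36 months, 10.5%, was below its lowest at 24 months, 10.9%. In skin the mean share went from 41.3% at 6 months to 20.5% at 36 months and 26.0% at 42 months, and in liver from 53.6% ± 11.5 (n = 4) to 20.3% ± 21.2 and 23.0% ± 13.1. The 36-month liver shares ranged from 4.33% to 55.5%, and without replicate 4 their mean was 11.5% ± 9.24. In brain clock3 also fell from 6 to 36 months, by 0.99 ± 0.14 (adjusted p = 2.67e-05), and in skin its difference was −0.04 (0.824). These shares are given as a description.

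For the pair of Bmal1 genes, in RPKM, arntl1a exceeded arntl1b in all libraries, by 1.28-fold in the lowest and 7.61-fold in the highest. Within brain the ratio was 2.17 ± 0.14 at 6 months, 3.00 ± 0.15 at 12 months, 2.69 ± 0.32 at 24 months, 2.71 ± 0.44 at 36 months and 2.16 ± 0.24 at 42 months (SD, n = 5), and the libraries of 12 months (2.89 to 3.24) lay above those of 6 months (at most 2.35). In skin the ratio was also higher at 12 months (5.04 ± 0.65, from 4.50 to 6.13) than at 6 months (2.85 ± 0.40, from 2.30 to 3.17). Between old and young, the log2 ratio of counts differed by 0.15 in brain, 0.35 in liver and 0.12 in skin, none of which passed an exact 2-sided permutation test (p = 0.244, 0.295 and 0.768, adjusted p = 0.442, 0.442 and 0.768 over 3 tissues).

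**Figure D5:**
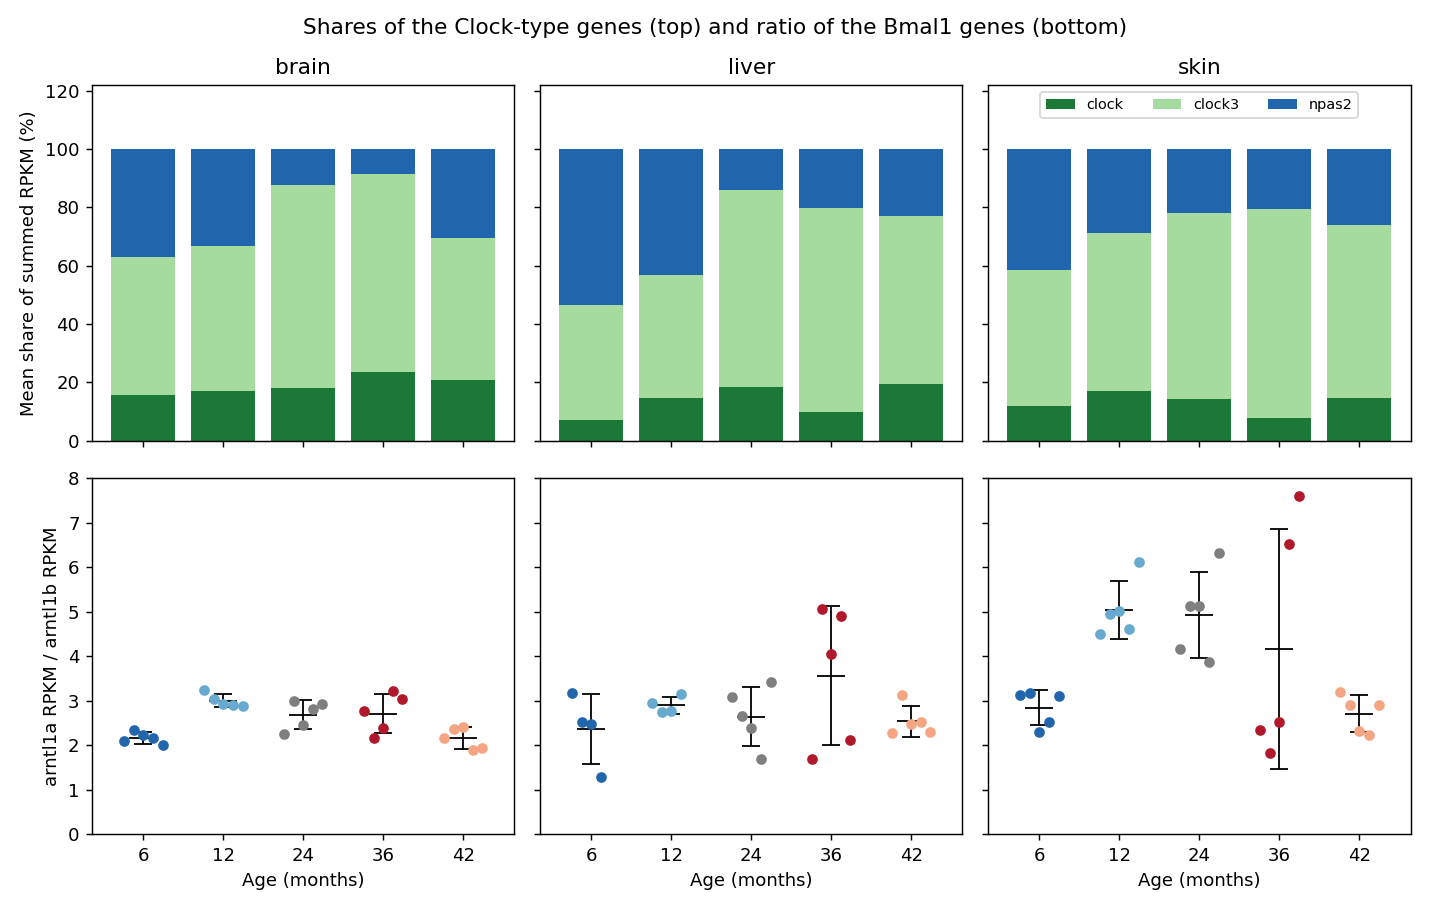
Top, mean share of each Clock-type gene in their summed RPKM by age, as stacked bars for brain, liver and skin. Bottom, RPKM of arntl1a divided by that of arntl1b, with single libraries as points and the mean and SD as lines. In brain the npas2 share is smallest at 36 months, at 8.32%, and the ratio is highest at 12 months, at 3.00.

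Over all 25 brain libraries the genes whose level ran most like a member included several clock genes. Among 16744 named genes, arntl1a was closest to fus, an RNA-binding protein gene (r = 0.98), to arntl1b (0.97) and to the cryptochrome gene cry2b (0.97). Those closest to npas2 were arntl1a (0.96), fus (0.95) and cry2b (0.95), and those closest to arntl1b were arntl1a, fus and arntl2, its more distant Bmal2 relative (all 0.97). The gene clock was closest to rorcb, which encodes a ROR receptor, and to nfil3-5, of the repressor family Nfil3 (both 0.91). Running most opposite to arntl1a was bhlhe41, which encodes the repressor Dec2 (−0.98), and the same gene had the lowest r with npas2 (−0.97). These values describe likeness over libraries that share ages, and the within-age values were smaller, at 0.65 for arntl1a with fus and −0.36 for arntl1a with bhlhe41. In skin arntl1a was again closest to fus (0.93), followed by cry4 (0.93), and arntl1b was most opposite to cry3 (−0.91) and dbpa (−0.90) after 1 gene known by a clone name. In liver arntl1a and arntl1b were each among the 3 genes most like the other (0.81), whereas npas2 was closest to UBB, trak1 and ssh2b (0.87 to 0.89), none of which is on the list of clock genes.

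Of 41 other clock genes tested in brain, listed by role, 39 differed among the ages (50.1% of all genes did), as did 32 of 42 in skin (49.0%) and 15 of 40 in liver (7.28%). From 6 to 36 months in brain, where 28.7% of all genes were called, both relatives of the activators fell, arntl2 by 2.23 and clock3 by 0.99. Of 4 period genes 3 rose, per1a by 2.48 and per1b by 2.03, and both Dec genes rose, bhlhe41 by 2.22. Among Rev-erb genes 3 of 5 rose, nr1d1 by 3.66 and nr1d2b by 1.27, and 3 of 5 ROR genes fell, rorcb by 3.16 and rorca by 1.33. Cryptochrome genes split, with 4 of 8 higher, cry3 by 1.81, and 3 lower, cry2a by 1.13. Output factors split too, 5 of 10 being higher, dbpb by 2.22, and 4 lower, nfil3-5 by 2.96. Adjusted p was 5.63e-06 or less for each gene named here except clock3 (2.67e-05).

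In skin from 6 to 36 months 3 of 4 period genes, 2 of 5 Rev-erb genes and 1 of 2 Dec genes rose, 3 of 5 ROR genes fell, and neither relative of the activators passed. Of 8 cryptochrome genes 1 rose, cry3 by 1.86 (adjusted p = 8.02e-08), and 4 fell, cry2a by 2.13 (5.40e-07). Output factors were higher for 4 of 11 and lower for none. Over all roles 12 of 42 rose and 8 fell there, where 18.0% of all genes were called. In liver none of 40 passed with edgeR, against 0.0855% of all genes, and 17 had an unadjusted p under 0.05. The share of all genes at that unadjusted threshold was not counted.

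From 36 to 42 months in brain, where 22.8% of all genes were called, both relatives of the activators rose, arntl2 by 2.002 (adjusted p = 2.41e-08) and clock3 by 0.66 (0.00196), whereas 3 of 4 period genes, both Dec genes and 2 of 5 Rev-erb genes fell, nr1d1 by 2.47 (6.03e-09), and 2 of 5 ROR genes rose, rorcb by 3.44 (1.30e-09). Of 8 cryptochrome genes 3 rose and 2 fell, and of 10 output factors 3 rose and 4 fell. In skin from 36 to 42 months (10.0% of all genes called) 3 of 4 period genes fell, per1b by 1.27 (5.75e-05), 2 of 5 Rev-erb genes fell, nr1d1 by 1.35 (0.0130), and 3 of 5 ROR genes rose, rorca by 1.79 (0.00366), whereas neither arntl2 (0.49, 0.362) nor clock3 (0.14, 0.399) passed. Of 8 cryptochrome genes in skin 2 rose and 3 fell, 1 of 2 Dec genes fell, and of 11 output factors 2 rose and 4 fell. In liver none of the 40 genes passed between these ages with edgeR, against 0.181% of all genes, and 13 had an unadjusted p under 0.05. For this comparison too, the share of all genes at that unadjusted threshold was not counted. These comparisons share the 36-month libraries with those of the 4 activators above.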

How the data were processed

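RNA of brain, liver and skin was sequenced from TruSeq libraries, a kit that does not mark strand. Per the labels and the submitters' processing notes, the authors used CASAVA 1.8.0, TopHat2 2.0.6, HTSeq and the Zv9 build, and deposited whole-number counts per gene and RPKM values. Of 75 samples, 73 were used. The 2 columns of 2 samples whose labels name both skin and liver were not used. The deposited counts were tested with edgeR 4.0.16 in R 4.3.3 (quasi-likelihood F-test, robust, filterByExpr, TMM, age as a factor of 5 levels within a tissue, Benjamini-Hochberg over all genes tested, threshold 0.05). Between tissues a model of 15 groups was fitted. Ratios used counts + 0.5, and correlations log2 CPM (prior count 2) less the mean of each age, with 100000 permutations within ages (Python 3.11.15, SciPy 1.17.1, pandas 2.3.3). Within a tissue, replicates are separate fish or pools, and p-values measure the spread between them. In the model of 15 groups, libraries of 1 fish from several tissues entered as if they were separate fish, except in the alternative with a block for fish.

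Alternatives were RLE size factors, no filter, DESeq2 1.42.0, limma 3.58.1 (voom, and log2 of the deposited RPKM + 0.1), 6, 36 and 42 months only, marker or nr1d1 covariates, a count of 5 added in the ratio, each library left out, and a block for fish. The fish numbers in the titles tie libraries of several tissues to 1 fish (40 fish or pools, consensus correlation 0.125), whereas replicate numbers follow accession order and pair nothing. Leaving out liver libraries under 50000 CPM of hepatocyte markers, dropping pck1 from the intestinal list, leaving a 36-month liver library out of the npas2 share and comparing only later ages among liver libraries of at most 2000 CPM of intestinal markers were chosen after seeing the data. The edgeR test of old against young within a tissue was checked on simulated data. The simulated counts were drawn independently, with no mixed tissue content and no pools, so the check does not cover these. The 4 genes and all lists were chosen with earlier results of these data known. Named are the 4 genes, up to 2 genes with the smallest p for each role of the clock list (42 of 67 listed symbols were found), nr1d1 and per1b, and for each gene the 3 highest and lowest r among genes with a mean log2 CPM of at least 1. Gene coordinates were not used here.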

Additional observations from a re-analysis of the deposited data

Results flagged for a closer look

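In 6 of 60 groups of 1 gene, tissue and age, 1 library lay farther from the rest than Dixon's 95% limit allows, where chance flags about 1 in 20 groups. For npas2, liver 36 months replicate 4 held 9.84 CPM against 0.351 to 1.99 CPM in the other 4, and skin 24 months replicate 2 held 9.47 CPM against 3.03 to 4.21 CPM. For arntl1b, brain 36 months replicate 5 held 4.83 CPM against 7.68 to 8.43 CPM, skin 12 months replicate 1 held 4.08 CPM against 6.31 to 7.10 CPM, and skin 42 months replicate 5 held 6.80 CPM against 8.49 to 9.16 CPM. For clock, liver 24 months replicate 3 held 11.4 CPM against 6.21 to 7.02 CPM. The change of npas2 from 36 to 42 months differed between brain and liver by 2.70 on the log2 scale (edgeR, adjusted p = 0.0344), in a contrast chosen after the values within tissues were seen.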

How the results depend on the processing

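Of 177 results, 71 changed direction or side of the threshold under at least 1 alternative, and 5609 of 5821 values under the alternatives kept both. Counts of npas2 were low in some liver libraries, with 16 reads (0.298 CPM) in 24 months replicate 4 and 9 reads (0.351 CPM) in 36 months replicate 2. DESeq2 gave no test over the 5 ages, and the limit of 2000 CPM of intestinal markers left no liver library of 6 or 12 months, so that contrasts with 6 months could not be fitted there. The cause of the changes below was not tested.

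With nr1d1 as a covariate 33 calls were lost, and the share of all genes called with it was not counted. Old against young in brain became −0.54 (clock), −0.97 (arntl1a), −0.94 (arntl1b) and −0.22 (npas2), and in skin −0.96 (arntl1b) and −0.93 (npas2), none passing. The F statistics over the ages in skin fell to 2.96 (clock) and 1.00 (npas2), and 42 against 6 months in brain turned to 0.0096 (arntl1b) and 0.34 (npas2). With photoreceptor and pineal markers, clock in old against young brain was −0.46 and no longer passed. With muscle markers, arntl1a in old against young skin passed at −1.36, and 42 against 6 months turned to −0.16 (clock) and −0.40 (arntl1a). With limma voom, arntl1a in old against young skin passed at −0.90, and over the ages in liver arntl1a (F = 7.20) and npas2 (8.61) passed, whereas npas2 at 36 against 24 months in brain no longer did (−1.01).

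In liver, npas2 over the ages passed with intestinal markers as a covariate (F = 6.54, and 6.30 without pck1). Without the 5 libraries low in hepatocyte markers, arntl1a (11.2) and npas2 (7.18) passed, clock turned to −0.52 (old against young), −0.011 (12 against 6 months) and −0.25 (24 against 6 months), and arntl1b turned to −0.36 (12 against 6 months) and −0.31 (42 against 6 months). For npas2 at 36 against 24 months the value turned to −0.12 without these 5, −0.16 with intestinal markers and −0.98 without libraries above 2000 CPM of them. That last value sets 1 library of 36 months, with 13 reads of npas2 (0.430 CPM), against 2 of 24 months. For arntl1b at 12 against 6 months the value turned to −0.024 (RLE), −0.022 (DESeq2), −0.0097 (intestinal markers) and −0.0053 (the same without pck1).

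With fish as a replicate block (limma voom), clock in liver minus skin no longer passed (0.26), and signs turned for npas2 in brain minus liver (0.050), its old against young difference there (0.41), and the 36 to 42 month change of arntl1a in brain minus skin (−0.28) and npas2 in liver minus skin (0.063). On RPKM, liver minus skin turned to −0.67 (clock), −0.54 (arntl1a), −0.10 (arntl1b) and −0.81 (npas2), npas2 in brain minus liver to 1.42, and npas2 in brain minus skin passed at 0.61.

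Leaving out 1 library at a time moved a call or a sign for the following, beside the cases given with their values above. Over the ages in liver F ran from 3.82 to 14.1 for arntl1a and from 3.87 to 10.1 for npas2, both passing only without 36 months replicate 4. Old against young ran from −2.63 to −1.76 for npas2 and from −0.21 to 0.43 for clock in liver, and from −0.89 to −0.61 for arntl1a in skin. In liver arntl1b at 36 against 24 months (−1.06 to −0.65) and arntl1a at 42 against 36 months (0.85 to 1.53) passed only without 36 months replicate 4. Clock in liver minus skin ran from 0.25 to 0.38, npas2 in brain minus liver from −0.39 to 0.092, its old against young difference there from −0.45 to 0.44, and that of clock in brain minus skin from −0.025 to 0.18. The log2 ratio of arntl1a to arntl1b in skin ran from −0.025 to 0.20. Signs of values that passed in no such fit turned for clock at 42 against 6 months (−0.053 to 0.028 in brain, −0.044 to 0.19 in skin), at 36 against 24 months in brain (−0.12 to 0.050) and at 24 against 6 months in liver (−0.11 to 0.49), for arntl1b in liver at 12 (−0.17 to 0.20) and 42 against 6 months (−0.14 to 0.26), and for npas2 at 36 against 24 months (−0.43 to 1.38 in liver, −0.62 to 0.27 in skin) and at 42 against 36 months in liver (−0.0017 to 1.92). The change from 36 to 42 months ran from −0.31 to 0.28 for arntl1a in brain minus skin, and in liver minus skin from −0.11 to 0.36 for clock and from −0.72 to 1.21 for npas2.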

Other observations

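Where 1 fish gave libraries of 2 tissues, the within-age deviation of each gene was compared between them (12 correlations). For clock in liver and skin, Pearson's r was 0.71 over 17 fish (permutation p = 0.00311, adjusted p = 0.0373) and Spearman's rho 0.72 (adjusted p = 0.0631), and r was 0.60 without the 2 farthest fish. These fish include those of liver 6 months replicates 1 and 2, 12 months replicate 1 and 24 months replicate 1, all low in hepatocyte markers. The correlation without them was not computed. No other of the 12 passed after adjustment. For arntl1b in brain and liver r was 0.72 over 11 fish (permutation p = 0.0361, adjusted p = 0.217). At 42 months brain shared 1 fish with liver and 1 with skin. Deviations were taken from the mean of the shared fish of an age, so a single fish deviates by 0. Where 2 fish were shared, as in brain and liver at 6, 12 and 36 months, their deviations are equal and opposite. The numbers of fish given are thus larger than the numbers of independent deviations.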
